A study of Mus musculus with 55 samples.

Results

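The regions described are the CTCF peaks of liver labelled Setd8-LKO that were gained without Smc3. They were selected on position alone: a peak of the CTCF list labelled Setd8-LKO was a member when it shared not even 1 bp with a peak of the wild type CTCF list, the wild type Smc3 list or the Smc3 list labelled Setd8-LKO. The rule gave 4189 members among 20905 CTCF peaks, which is 20.0% of the list (exact 95% interval 19.5 to 20.6) and 23.9% of all gained CTCF peaks. The other peaks of the list were 9912 gained sites with an Smc3 peak labelled Setd8-LKO and none in wild type ("new Smc3"), 3432 gained sites at a wild type Smc3 peak, and 3372 sites kept from wild type. Of the kept sites, 316 touched no Smc3 peak in either list, which they share with the members, and they differ in being kept.

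The series measured mouse liver by ChIP-seq of CTCF, Smc3 and H3K27ac, by CUT&Tag of Lamin A/C and H4K20me3, by ATAC-seq of nuclei and by RNA-seq, in 55 samples. Setd8-LKO mice carry floxed alleles of Setd8 (Kmt5a) that an Alb-Cre transgene, active in hepatocytes, recombines at exon 7, while the other cells of the liver keep the gene. All mice, wild type included, were male and 45 to 50 days old. The Setd8-LKO mice were taken 24 h after TCPOBOP, a xenobiotic that activates the nuclear receptor CAR and makes hepatocytes divide, at 3 mg/kg. The wild type mice of the region lists were labelled untreated, whereas the study's methods name a vehicle for controls, so that genotype and treatment changed together in every region list and cannot be told apart. A further RNA-seq group was wild type given the same TCPOBOP.

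CTCF is a zinc finger protein that binds a long sequence motif and stops the cohesin ring, of which Smc3 is a core subunit, as it extrudes loops of chromatin. Sites where CTCF and cohesin meet anchor loops and domain borders, whereas CTCF on its own DNA motif can also be found without cohesin. In liver as elsewhere, CTCF is known to keep many of its strong sites across cell types, and the weaker ones vary.

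There was 1 list per group, so that no difference between sets of regions has a replicate test, and how libraries were combined into a list is not given in the sources used here. The labels name 2 CTCF libraries for Setd8-LKO and 4 for wild type, whose list held 5838 peaks. They name 2 and 3 Smc3 libraries, and the Smc3 lists held 21615 and 13045 peaks. Intervals below are exact Clopper-Pearson intervals at 95% and cover counting error only. The material was bulk liver, so that fewer cells with a bound site and less binding per cell cannot be told apart. The starts of 10 of 11 hepatocyte marker genes held H3K27ac in the list labelled Setd8-LKO, against 0 of 10 Kupffer cell markers, 2 of 8 endothelial, 2 of 8 stellate cell, 4 of 8 cholangiocyte and 0 of 8 lymphocyte markers. Of all protein-coding genes 58.5% held it there. ATAC regions were at 9 of the 11 hepatocyte markers in wild type and at 6 in the list labelled Setd8-LKO. The paper reports that most hepatocytes were lost from the treated Setd8-LKO livers, with more small mononuclear cells and hyperploid hepatocyte nuclei.

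The members with the strongest signal and a CTCF motif were spread over very different places, which is why a few are shown. A window of 201 bp around the summit was searched on both strands for the 12-base CTCF core consensus with at most 1 mismatch, and capitals mark the match. The sequences are from mm10 (GRCm38). The site upstream of Gnaz, which encodes a G protein alpha subunit, was the member with the highest fold enrichment (58.6) and lies at chr10:74921030-74921089 on the minus strand. The Fes site, 75 bp upstream of a start of this tyrosine kinase gene, lies at chr7:80379706-80379765 on the minus strand. The Lif site is in an intron of this cytokine gene at chr11:4261241-4261300 on the minus strand. The Man2b2 site is in an intron of an alpha-mannosidase gene at chr5:36820314-36820373 on the plus strand. The site near Mir7019 lies at chr4:138315938-138315997 on the minus strand.
Gnaz: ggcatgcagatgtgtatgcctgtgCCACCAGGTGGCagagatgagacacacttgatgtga
Fes: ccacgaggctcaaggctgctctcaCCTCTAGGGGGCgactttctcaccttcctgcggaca
Lif: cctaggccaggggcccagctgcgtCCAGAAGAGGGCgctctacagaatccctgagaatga
Man2b2: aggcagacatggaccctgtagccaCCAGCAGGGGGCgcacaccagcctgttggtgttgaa
Mir7019: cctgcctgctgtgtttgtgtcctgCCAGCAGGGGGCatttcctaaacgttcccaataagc

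Many other members were copies of 2 interspersed repeats, which were found by the 20-base sequences that at least 20 member windows shared. Capitals mark the most common 20-base sequence of each family, and a pair of members is shown per family so that the shared flanks can be read. The first family is shown at chr6:17004320-17004419 (minus strand) and chr16:19791884-19791983 (minus strand). The second is shown at chr11:48368039-48368138 (minus strand) and chr4:7279351-7279450 (plus strand). No repeat annotation was used here, so that the families carry numbers.
Family 1, chromosome 6: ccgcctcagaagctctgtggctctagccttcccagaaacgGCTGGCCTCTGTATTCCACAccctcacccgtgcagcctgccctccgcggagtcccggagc
Family 1, chromosome 16: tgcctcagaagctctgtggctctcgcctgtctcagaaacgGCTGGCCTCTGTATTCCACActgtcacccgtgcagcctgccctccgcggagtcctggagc
Family 2, chromosome 11: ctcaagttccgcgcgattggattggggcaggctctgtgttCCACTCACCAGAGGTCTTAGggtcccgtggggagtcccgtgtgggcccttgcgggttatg
Family 2, chromosome 4: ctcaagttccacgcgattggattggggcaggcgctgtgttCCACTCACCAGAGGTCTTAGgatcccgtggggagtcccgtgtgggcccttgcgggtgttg

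Most members held neither the consensus nor a repeat, and a member of this kind at a start and another in an exon are shown, with CpG dinucleotides in capitals. The Smug1 site, 93 bp upstream of a start of this uracil DNA glycosylase gene, lies at chr15:103165559-103165659 and had a fold enrichment of 41.9; its best match to the consensus had 2 mismatches. The Krt88 site is in an exon of a keratin gene at chr15:101453521-101453621, with a fold enrichment of 51.9 and a best match with 3 mismatches. Both are written on the plus strand.
Smug1: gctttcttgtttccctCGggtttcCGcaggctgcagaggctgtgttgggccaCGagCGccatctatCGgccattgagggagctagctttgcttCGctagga
Krt88: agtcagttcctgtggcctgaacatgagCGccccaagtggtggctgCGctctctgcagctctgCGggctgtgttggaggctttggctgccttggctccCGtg

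The members were mostly weak peaks. Their median fold enrichment over local background, as the authors' caller gave it, was 11.7 (quartiles 10.0 and 13.4) and their median −log10 p was 26.1, against 11.7 and 27.4 at new Smc3 sites, 19.5 and 57.3 at wild type Smc3 sites and 39.6 and 155.5 at kept sites. These values were compared within the list that chose the members and are given as a description. Members were also short, with a median length of 236 bp against 328 bp at new Smc3 sites, 402 bp at kept sites and 278 bp at kept sites without Smc3, whose median fold was 21.2. They lay a median of 18.5 kb from the nearest Smc3 peak labelled Setd8-LKO, 34.7 kb from the nearest wild type Smc3 peak and 61.8 kb from the nearest wild type CTCF peak. Kept sites without Smc3 lay 15.3 kb and 26.7 kb from the Smc3 peaks of these lists. The rule has no graded threshold beyond 1 bp of overlap. The 46 members that lay within 100 bp of a peak of another list had a median fold of 11.7, and the 55 gained sites that shared at most 100 bp with an Smc3 peak had 10.9.

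The CTCF consensus was found in 546 of the 4171 members with a searched window, or 13.1% (12.1 to 14.2). Of the members, 17 lay outside the assembled chromosomes. Windows of the same length 2000 bp to either side held it in 2.76% (2.42 to 3.13), and windows around all annotated transcript starts in 2.74%. Kept sites held it in 61.6%, gained sites at wild type Smc3 in 34.9% and new Smc3 sites in 7.05%. Kept sites without Smc3 held it in 59.8% (54.2 to 65.3). The pooled shares mix positions. New Smc3 sites held the consensus in 5.93% at starts, 8.05% in exons, 14.2% in introns and 9.87% between genes. Members with the consensus and no repeat numbered 114 of 987 at starts, 74 of 1001 in exons, 183 of 943 in introns and 159 of 1258 between genes. A match with no mismatch was present in 134 members, or 3.21%, against 0.768% at new Smc3 sites and 22.3% at kept sites. Of the members with the consensus, 45.2% had it within 25 bp of the summit, against 60.9% of kept sites with it. For kept sites without Smc3 it was 53.4% (46.1 to 60.7), with an interval that overlaps that of the members (41.0 to 49.5).

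The consensus share differed by the strength of the peak among the members themselves. Below a fold enrichment of 8 it was 7.55%, from 8 to 10 it was 5.58%, from 10 to 12 it was 6.65% and from 12 to 15 it was 11.7%. From 15 to 20 it was 31.2% (26.8 to 35.9), from 20 to 30 it was 53.2% (45.4 to 60.9), and among the 72 members at 30 or more it was 51.4% (39.3 to 63.4). The last pair of bins overlapped within their counting error, and both lay above every bin below 15.

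**Figure D1:**
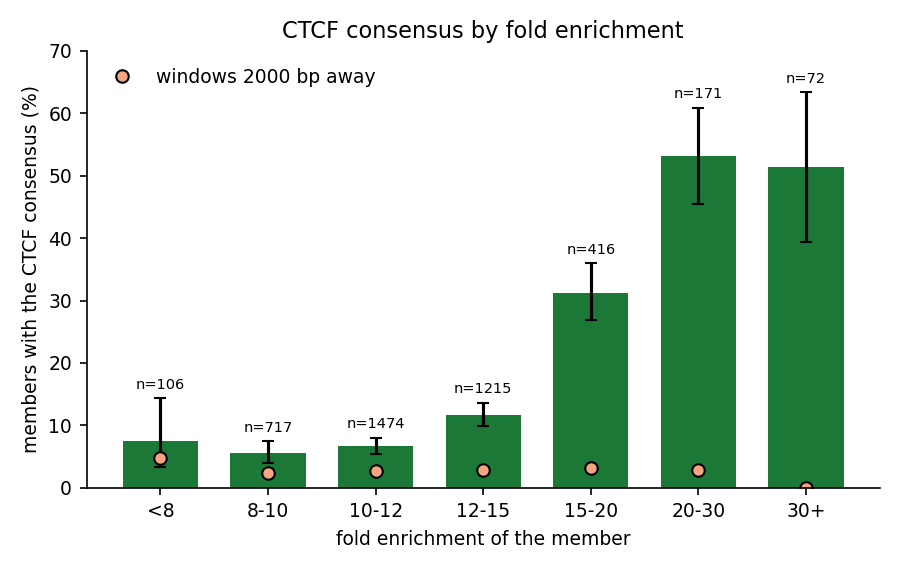
Share of members with the CTCF consensus (%, bars, with exact 95% counting intervals) by fold enrichment of the member, and the same share in windows 2000 bp away (points). The bars lie between 5.58% and 11.7% below a fold of 15 and at 53.2% and 51.4% from 20 upward, whereas the points stay below 5%.

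The 10 members with the highest fold enrichment ranged from 42.3 to 58.6, and 8 of them held the consensus. They were the sites near Gnaz, Gm45623, Rpl3-ps1, Gm42424 and n-R5s46 between genes, those in introns of Ripor2, 4930520P13Rik and Lif, the Krt88 exon and the Fes start. Krt88 and n-R5s46 were the ones without the consensus at 1 mismatch. The Gnaz site lay 45.5 kb from the nearest Smc3 peak labelled Setd8-LKO and 15.8 kb from the nearest wild type one. The Fes and Lif sites were closer, at 2.60 kb and 1.17 kb from Smc3 labelled Setd8-LKO, and 1.76 kb and 2.06 kb from a wild type CTCF peak. The Gm45623, Ripor2 and Rpl3-ps1 sites lay in accessible regions labelled Setd8-LKO, and none of the 10 lay in an H3K27ac peak of that list.

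Families 1 and 2 accounted for a larger share of the members than of the other sets. Family 1 was present in 463 members, or 11.1% (10.2 to 12.1), against 147 or 1.49% of new Smc3 sites, 0 of 3432 sites at wild type Smc3 and 0 of 3371 kept sites with a searched window, which allows up to 0.107% and 0.109%. No peak of the wild type CTCF list held it, and 8 of 8342 windows beside the members did. Family 2 was present in 147 members, or 3.52%, against 12 new Smc3 sites and 1 kept site. A simple repeat was present in 157 members, or 3.76%, against 1.74% of new Smc3 sites and 2.19% of the windows beside the members. It was any of the shared 20-base sequences with at most 5 different dinucleotides. The most common was a run of CA, held by 121 of the 157, and the group is called the CA repeat here. The pooled shares mix positions, since most new Smc3 sites were at starts, where the repeats were rare. Between genes, family 1 was present in 29.6% of members (27.1 to 32.2) and 15.3% of new Smc3 sites (12.7 to 18.1), and family 2 in 9.68% and 1.11%. In introns family 1 was present in 9.54% and 5.17%. The CA repeat turned the other way within these positions, at 6.69% of members and 10.6% of new Smc3 sites between genes and 6.26% and 11.8% in introns. Together 766 members, or 18.3%, held a family or the simple repeat. The families were built from the members' own windows after their values were seen, so that their share is a description and no test was made.

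Copies were counted by the most common 20-base sequence of each family. It was held by 97 of the 463 family 1 windows and 93 of the 147 family 2 windows. Copies of it in the members were a minority of those in the genome. The 20-base sequence of family 1 had 1232 copies on the assembled chromosomes, of which 146, or 11.9%, were in members, 41 in other CTCF peaks labelled Setd8-LKO and 0 in wild type CTCF peaks, and 69 copies, or 5.60%, were in Smc3 peaks labelled Setd8-LKO. That of family 2 had 9335 copies, of which 127, or 1.36%, were in members and 21 in Smc3 peaks labelled Setd8-LKO. Neighbouring copies within 1000 bp of each other were spaced by a median of 206 bp in family 1 and 208 bp in family 2, and 66.97% of the 221 spacings in family 1 and 94.1% of the 4529 in family 2 were within 10 bp of the median. Only reads with a high mapping quality were kept by the authors, so that reads from near-identical copies were removed. What this did to the number of bound copies was not tested.

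The distance from members to Smc3, a value the choice of members bears on since touching sites were left out, differed by sequence group and is given as a description. Members of family 1 were a median of 220 kb (quartiles 101 and 453) from the nearest Smc3 peak labelled Setd8-LKO and those of family 2 were 261 kb from it. Members with the CA repeat were at 76.6 kb, members with the consensus at 14.4 kb, and the 2875 members with none of these sequences at 11.3 kb.

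**Figure D2:**
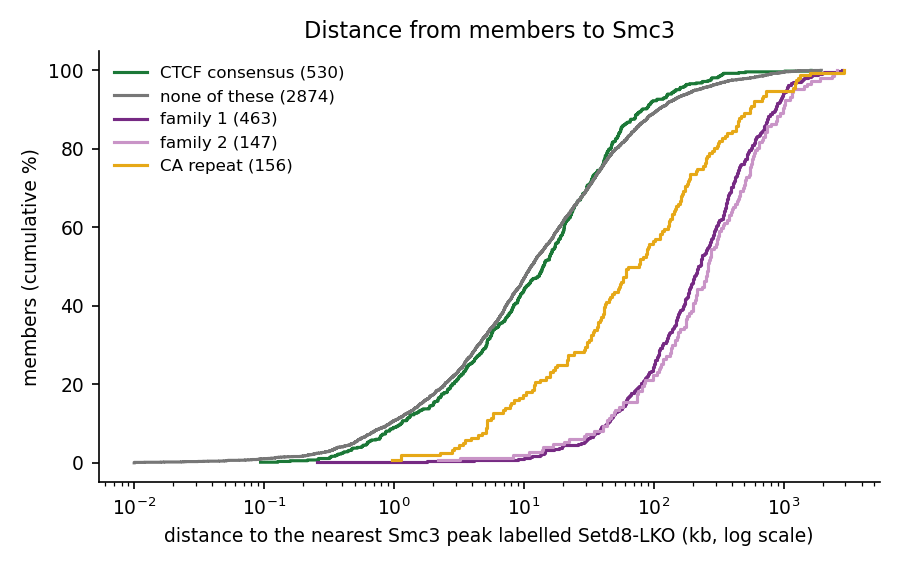
Cumulative share of members (%) by distance to the nearest Smc3 peak labelled Setd8-LKO (kb, log axis), 1 line per sequence group, with members that held several sequences counted under the family first. The families lie to the right, with medians of 220 kb and 261 kb, and the consensus group and the group with none of the sequences run together near 11 to 14 kb.

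By position, 987 members (23.6%) had their summit within 1000 bp of an annotated transcript start, 1001 (23.9%) were in an exon away from starts, 943 (22.5%) in an intron and 1258 (30.03%) between genes. New Smc3 sites were at starts in 73.8%, gained sites at wild type Smc3 in 61.1% and kept sites in 40.9%. Kept sites without Smc3 were at starts in 16.5% (12.5 to 21.01), below the members. Counting only starts of protein-coding transcripts, the share was 10.9% for members and 66.5% for new Smc3 sites. Members were in exons more often than any of the other sets by these shares, with 11.8% of new Smc3 sites, 6.59% of sites at wild type Smc3, 7.53% of kept sites and 7.91% of kept sites without Smc3 there. Of the exon members, 828, or 82.7%, lay in coding sequence, close to the 84.8% of exon sites with new Smc3. It was 60.2% of exon sites at wild type Smc3 and 47.2% of kept exon sites.

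The sequence groups differed in place. Of the 463 family 1 members, 367 lay between genes and 5 at a start, and none of the 147 family 2 members was at a start or in an exon. Of the 530 members with the consensus and no repeat, 183 were in introns and 159 between genes. The 2875 members with none of the sequences held 923 of the 1001 exon members and 856 of the 987 start members. These members were rich in short GC-rich words. GGGCGG was found on either strand in 20.3% of their windows, against 5.18% of windows 2000 bp beside them and 25.5% of windows at all annotated starts. GCCGCC was found in 20.8%, against 3.74% beside them and 20.1% of windows at annotated starts (every 10th start). The words were picked for their ratio and carry no test.

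**Figure D3:**
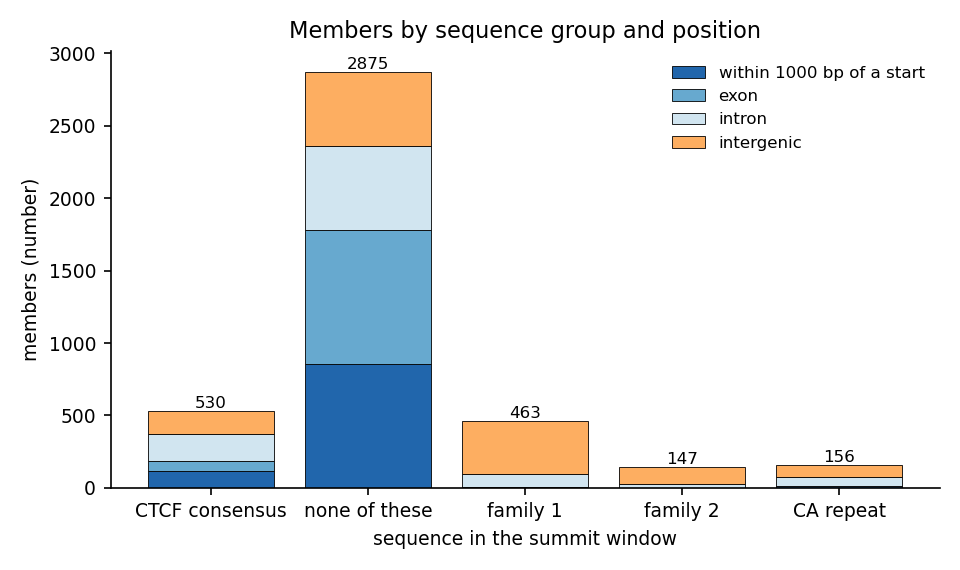
Number of members by the sequence in the 201-bp summit window, split by position in the annotation. The group with none of the sequences holds 2875 members, mostly in exons (923) and at starts (856), and family 1 lies almost wholly between genes (367 of 463) and in introns (90).

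Members were GC-rich but less so than sites that gained Smc3. The median GC content was 61.7% with 9 CpG dinucleotides per window, against 68.2% and 18 at new Smc3 sites and 59.2% and 8 at kept sites. Windows 2000 bp from members had 47.3% GC. Among members the CA repeat windows had the lowest median, 47.8%, and family 1 the highest, 63.7%.

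Open and acetylated chromatin was rare at members. ATAC regions labelled Setd8-LKO held 92 members, or 2.2% (1.77 to 2.69), and the wild type ATAC list held 117, or 2.79%. New Smc3 sites were in these lists in 18.6% and 25.8%, and kept sites in 30.9% and 39.9%. The difference from new Smc3 sites was largest at starts, where 23.8% and 32.8% of them and 4.36% and 5.07% of members were in the ATAC lists. In exons the shares were low in both sets, at 1.37% (0.784 to 2.21) and 2.99% for new Smc3 sites and 0.699% (0.282 to 1.44) and 1.20% for members. H3K27ac peaks held 115 members in each list, or 2.75% (2.27 to 3.29), against 76.7% of new Smc3 sites in the list labelled Setd8-LKO and 62.5% in wild type. Kept sites without Smc3 were close to the members in H3K27ac, at 2.22% (0.895 to 4.51) in the list labelled Setd8-LKO and 2.53% in wild type, and above them in ATAC, at 10.1% and 12.03%. Allowing 1000 bp around the site raised the share labelled Setd8-LKO to 6.16% for members, 7.28% for kept sites without Smc3 and 80.03% for new Smc3 sites. These lists covered 0.760% (H3K27ac) and 0.268% (ATAC) of the assembled chromosomes, so that the members' shares were above the covered part of the genome.

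Members at starts had H3K27ac more often than members in exons, and less often than new Smc3 sites at starts. Of the 754 members whose nearest start belonged to a protein-coding gene and lay within 1000 bp, 14.9% (12.4 to 17.6) had H3K27ac labelled Setd8-LKO within 1000 bp, while new Smc3 sites at starts of any kind had it in 90.5%. Of members in exons it was 5.59%.

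Lamin A/C islands, which mark chromatin at the nuclear lamina, held 675 members labelled Setd8-LKO, or 16.1% (15.0 to 17.3), and 753 in wild type, or 17.98% (16.8 to 19.2). H4K20me3 islands, a mark of constitutive heterochromatin, held 16.3% and 16.97%. New Smc3 sites were in Lamin A/C islands in 5.45% and 7.25%, and kept sites in 1.72% and 2.52%. Kept sites without Smc3 were in Lamin A/C islands in 6.01% and 7.28%, and in H4K20me3 islands in 0.633% and 0.316%. The islands covered 27.8% and 31.2% of the assembled chromosomes for Lamin A/C, and 23.2% and 26.3% for H4K20me3, so that members, over all positions, were in them less often than their covered length. The excess of members over new Smc3 sites depended on position. Between genes 38.2% of members and 21.9% of new Smc3 sites were in wild type Lamin A/C islands, but members outside the repeats were there in 16.4% (13.7 to 19.4). At starts it was 10.3% against 5.99%, and in exons 3.796% (2.70 to 5.17) against 4.19%. Wild type H4K20me3 islands held 38.2% of members between genes, 15.4% of those outside the repeats and 21.2% of new Smc3 sites there, repeats included. Of the members, 71.2% were in none of the 4 kinds of region in either list, against 17.4% of new Smc3 sites and 44.2% of kept sites. Kept sites without Smc3 were in none of them in 78.8% (73.9 to 83.2), so that lying in none of them was common in both sets without Smc3.

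**Figure D4:**
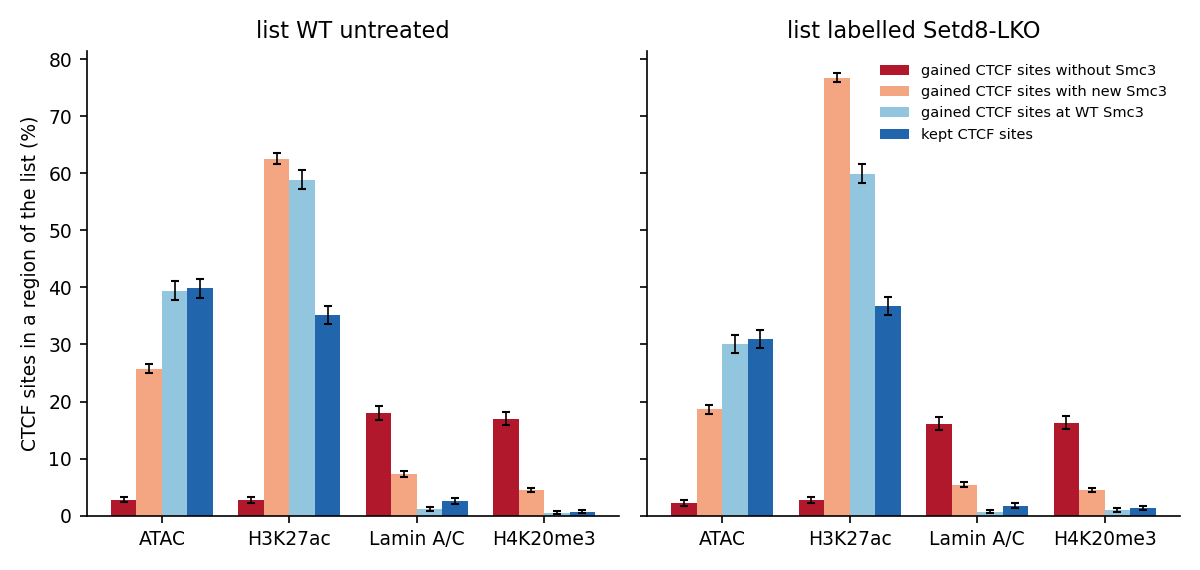
Share of CTCF sites (%, with exact 95% counting intervals) in regions of the ATAC, H3K27ac, Lamin A/C and H4K20me3 lists of wild type (left) and of liver labelled Setd8-LKO (right), for members and the 3 other sets. Members sit at 2.2% to 2.79% in ATAC and H3K27ac and at 16.1% to 17.98% in the Lamin A/C and H4K20me3 lists.

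The repeats held most of the members in islands. Of the 753 members in wild type Lamin A/C islands, 464, or 61.6%, were in a family or the CA repeat, and of the 711 in wild type H4K20me3 islands 455 were. Family 1 members lay in wild type Lamin A/C islands in 68.0% (63.6 to 72.3) and in H4K20me3 islands in 69.5%, and all copies of its 20-base sequence in 45.1% and 49.3%. Only 97 of the 463 family 1 windows held that sequence. Family 2 members lay in these islands in 63.9% and 57.8%. None of the family members had a wild type ATAC region, and none had H3K27ac labelled Setd8-LKO within 1000 bp. Outside the repeats, 8.44% of members were in wild type Lamin A/C islands and 6.98% in those labelled Setd8-LKO, and with the consensus it was 6.41% and 5.68%.

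The density of members differed between chromosomes, as did that of the whole list. Chromosome 11 had 2.72 members per Mb, and it was also the densest for all CTCF peaks labelled Setd8-LKO, at 14.3 per Mb, and for wild type CTCF peaks, at 4.16 per Mb, with members making up 18.99% of its peaks. Chromosome 5 had 2.42 members per Mb and chromosome 3 had 0.987. Chromosome X had 17 members, or 0.0994 per Mb. The whole CTCF list labelled Setd8-LKO was thin there too, at 0.877 peaks per Mb, as was the wild type list, at 0.123 per Mb. Neighbouring members were a median of 210 kb apart, and 255 gaps were under 5 kb. In all, 2133 protein-coding genes held a member in their transcribed span and 441 held several. The long gene model Gm20388 held 36 over 4435 kb, and the overlapping models Gm42416, Gm37013 and Gm37388 of the protocadherin cluster on chromosome 18 held 20 to 23. Within that cluster Pcdha1 and Pcdha2 held the same 11 over up to 257 kb. Outside these, Adgrb1, an adhesion receptor gene, held 8 over 73.3 kb, Rbm19 held 7 and Atp9a held 6. Gse1, which lies within the span of Gm20388, held 6 of its own.

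Of 22028 protein-coding genes, 738, or 3.35%, had a member within 1000 bp of a start, and 452 of these, or 61.2%, had H3K27ac labelled Setd8-LKO within 1000 bp of any of their starts, against 58.5% of all protein-coding genes. Of the 738, 255 also had a new Smc3 site at a start. None of the 16 genes of cohesin, CTCF and loop factors, 20 of mitosis, 20 of DNA replication, 15 of p53 targets, 15 of H4K20 methylation and chromatin or 12 of the CAR response had a member at a start, nor did any marker gene of the 6 liver cell types. New Smc3 sites were at 10, 4, 6, 4, 10 and 2 of the genes of these functional lists, and at 6448 of all 22028 protein-coding genes. Hox genes, which pattern the body axis, had members at 6 of 39 (Hoxa9, Hoxb6, Hoxc10, Hoxc5, Hoxc6 and Hoxd11), or 15.4%, and new Smc3 sites at 17 of 39. Members were at 4 of 57 clustered protocadherins, 2 of 79 ribosomal protein genes, 2 of 67 replication-dependent histone genes and 6 of 1093 olfactory receptor genes, or 0.549%. The Hox and protocadherin genes lie side by side and share members, so that they are not independent.

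Expression of genes at members was read from the authors' tables, which list only genes that they had selected as changed. Kmt5a, the targeted gene, had 1341, 1465, 1338 and 1313 normalized counts in the libraries labelled Setd8-LKO, against 613, 567, 761, 563 and 715 in wild type. The groups did not overlap and the libraries labelled Setd8-LKO were the higher (log2 fold change 1.08, SE 0.14, adjusted p = 0.000445, edgeR's quasi-likelihood test). With size factors taken from the listed genes the log2 fold change was 0.27 and did not pass. Counts over the whole gene do not resolve the loss of an exon, so that they do not check the label, and the libraries are named by it. Cyp2b10, the main CAR target, had 31592 to 66038 normalized counts in them and 25 to 106 in wild type. Ctcf and Smc3 were not in the tables.

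Of 3900 listed genes 114 were at a member, and 112 of 3807 tested were. In libraries labelled Setd8-LKO given TCPOBOP against untreated wild type, 68 of the 112 were higher (60.7%), where 50.7% of all tested genes were higher, and 32 were lower (28.6%), where 33.8% of all were lower. Here called means an adjusted p under 0.05 and a log2 fold change of at least 1 in either direction. The median log2 fold change was 1.35 at members and 1.19 over all tested genes. With size factors taken from the listed genes the split was 27 higher and 35 lower, where 21.5% and 38.4% of all tested genes were higher and lower and the median over all genes was 0.35, so that the direction split depended on the scaling. The libraries were sequenced in 2 runs: within run B, with 3 libraries labelled Setd8-LKO and 2 of wild type, 22 were higher and 23 lower (19.3% and 20.2%, against 26.96% and 23.7% of all tested genes). With run as a term in the fit 59 were higher and 29 lower (52.7% and 25.9%, against 46.6% and 31.3%). Run A held 1 library labelled Setd8-LKO and gave no value of its own. Genes at new Smc3 sites were higher in 60.9% and lower in 26.2%, and genes at kept sites in 58.2% and 30.2%. These sets share genes with the members, so that they are not separate. Of the 738 protein-coding genes at members, listed or not, 255 also had a new Smc3 site at a start. Genes at gained sites at wild type Smc3 were higher in 41.2% and lower in 47.6%, with a median log2 fold change of -1.04. Of the 100 called genes at members, 96 had groups that did not overlap, as had 3129 of the 3220 called genes in all. In wild type given TCPOBOP against untreated wild type, which shares the controls, 15 listed genes were at members and 14 were tested. Of these, 6 were higher (42.9%) against 51.3% of all 679 tested genes, and 2 were lower (14.3%) against 16.2%. With TMM scaling 1 was higher and 6 were lower (7.14% and 42.9%, against 8.84% and 28.9% of all tested genes). Within run A 3 were higher and 0 lower, where 12.9% and 1.16% of all tested genes were, and within run B 2 and 3, where 25.7% and 10.4% were.

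The named genes that rose were mostly close to 0 in wild type. Cacna1b, which encodes a subunit of the N-type calcium channel, had 122, 132, 45 and 99 normalized counts in libraries labelled Setd8-LKO and 0, 3, 0, 1 and 0 in wild type. All 4 libraries were above all 5, with a log2 fold change of 7.01 (SE 0.63, edgeR adjusted p = 4.96e-05) that rests on few counts in wild type. Kif5c, a kinesin heavy chain, had 99, 76, 40 and 90 against 5, 1, 2, 1 and 2 (4.93, SE 0.44). Their members were 934 bp inside and 205 bp upstream of a protein-coding start, 31.2 kb and 80.1 kb from Smc3 labelled Setd8-LKO, and neither held the consensus. Both genes also had a new Smc3 site at another place within 1000 bp of a start, as had Sapcd2, Rap1gap and Mlxipl among the named genes. Aacs and Mlxipl had a gained site at wild type Smc3. At Cacna1b, Kif5c, Sapcd2, Rap1gap, Mlxipl and Aacs, a member therefore did not mark a gene without Smc3. Smc3 labelled Setd8-LKO was also close to the members at Troap (0.128 kb), Ankle1 (0.295 kb) and Prodh2 (0.128 kb), without touching them. Ankle1, Rap1gap, Rin1, Mlxipl and Sardh had a kept site at a start, which need not touch Smc3.

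Rap1gap, a GTPase-activating protein for Rap1, had 724, 738, 837 and 941 normalized counts against 80, 51, 50, 66 and 62 in wild type, a log2 fold change of 3.71 (SE 0.18). In wild type given TCPOBOP its log2 fold change was 1.26 (SE 0.25, edgeR adjusted p = 0.0436). That value was -0.00195 with TMM scaling, and the call was lost without any of the 10 libraries, where the value ran from 1.06 to 1.37. Its member lay 802 bp upstream of the start of a transcript with a retained intron, 0.201 kb from an Smc3 peak. Ttc39a had 356, 380, 323 and 492 against 13, 13, 14, 26 and 18 (4.53, SE 0.26) and 1.98 (SE 0.29) in wild type given TCPOBOP, a value that was 0.71 and not called with TMM scaling. The member at Rin1, a Ras and Rab5 effector gene, had the highest fold among those of the genes that rose, 19.3, and held the consensus 27 bp upstream of a start (log2 fold change 3.47, SE 0.44). Mogat1, an acylglycerol acyltransferase, Sapcd2 and Troap, which act at the mitotic spindle, Ankle1, an endonuclease, and Ccnb1ip1, a meiotic crossover factor, were the others, with log2 fold changes from 3.33 to 4.64.

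The genes that fell included metabolic genes of hepatocytes. Abcg5 and Abcg8 encode the subunits of the sterol transporter that secretes cholesterol into bile, lie head to head, and share the same member, which had a fold enrichment of 10.97 and lay 113.7 kb from Smc3. Abcg5 had 171, 197, 305 and 360 normalized counts in libraries labelled Setd8-LKO and 2009, 1755, 2728, 948 and 3170 in wild type, and Abcg8 had 293, 287, 464 and 482 against 2601, 2177, 3313, 1174 and 4006. The groups did not overlap for either, with log2 fold changes of -3.04 (SE 0.38) and -2.80 (SE 0.35). Both were at -1.41 and -1.39 in wild type given TCPOBOP, with edgeR adjusted p of 0.101 and 0.0771, so that neither passed the test there with the authors' scaling. Both passed with TMM scaling, at -2.68 and -2.66, with size factors of the listed genes, at -2.62 and -2.60, within run B, at -1.64 and -1.55, and without untreated wild type replicate 4, at -1.60 and -1.58. They also passed in DESeq2 with the authors' scaling and with adjustment over the listed genes alone, so that the call rested on the setting while the sign did not.

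Mlxipl, the glucose-responsive transcription factor ChREBP, had 1503, 1636, 1917 and 1478 against 9254, 6969, 7098, 6543 and 7983, a log2 fold change of -2.21 (SE 0.17). Aacs, acetoacetyl-CoA synthetase, had 172, 213, 190 and 161 against 3853, 2840, 559, 1617 and 638, and the wild type libraries spread widely (-3.37, SE 0.57, edgeR adjusted p = 0.00311). The Aacs member held the consensus with no mismatch at a fold enrichment of 28.5, the highest among the named genes. Car3, a carbonic anhydrase, had 3754, 5107, 14951 and 15234 against 48447, 56214, 28622, 20805 and 41312, at -2.0 (SE 0.48, edgeR adjusted p = 0.0288). This call was lost without Setd8-LKO replicate 1 or 2, where the log2 fold change was -1.73 and -1.79, and without wild type replicate 1, 2 or 5, where it was -1.91, -1.83 and -1.98. The member at Prodh2, hydroxyproline dehydrogenase, held the consensus 17 bp inside a start at a fold of 27.2, and it touched H3K27ac labelled Setd8-LKO. Prodh2 and Sardh, sarcosine dehydrogenase, fell by 2.0 and 1.96 on the log2 scale, Hgfac, which activates hepatocyte growth factor, by 1.86, Eif4ebp3, a translation repressor, by 1.83, and Olfm3 by 2.21. Of the 20 named genes, 10 had their member at the start of a retained-intron or processed transcript rather than of a coding transcript.

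**Figure D5:**
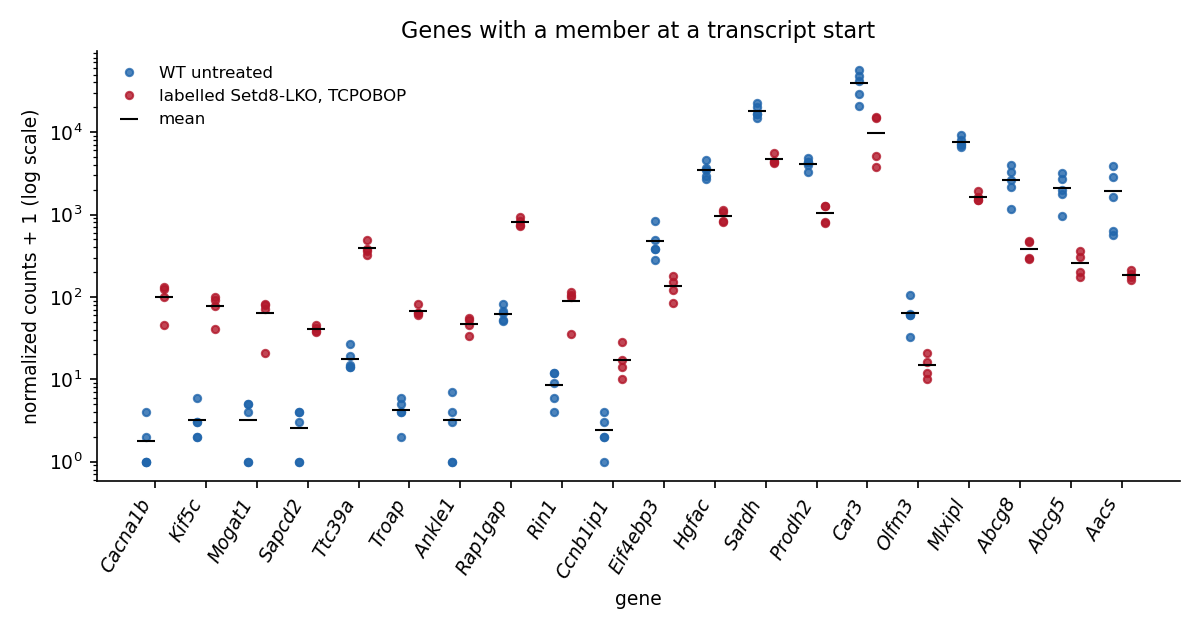
Normalized counts plus 1 (log axis) of the 20 named genes with a member at a transcript start, in each library (points) of wild type and of liver labelled Setd8-LKO given TCPOBOP, with group means (bars). For every gene shown the points of the groups do not overlap, since this was part of the choice.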

How the data were processed

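The members, gene lists and sequence groups were chosen with earlier results of these data known, and named items followed a fixed rule (the members with the highest fold by class, and the 10 largest rises and falls among called genes at members whose groups did not overlap). Per the labels and methods, the authors trimmed chromatin reads with Trimmomatic 0.39, aligned them with HISAT2 to mm10 and kept a mapping quality above 30. They reduced ChIP and CUT&Tag libraries to the same total read count, and called peaks with MACS2 2.2.7.1 and islands with SICER. How libraries were combined is not given in the sources used here. RNA-seq reads were processed with PRINSEQ and aligned with HISAT2. The deposited peak lists give fold enrichment over local background, a ratio, and −log10 p, and the deposited islands hold a score that was not used. The deposited RNA tables hold raw and normalized counts of genes chosen by the authors; their fold changes and p-values were not used, nor were 114 other per-sample columns. Input libraries were not used. The methods call the libraries biological replicates.

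Overlaps needed 1 bp. Starts, exons and introns were those of the GENCODE annotation of the same build, and a gene was at a member when a summit lay within 1000 bp of any of its starts. Counts were tested with edgeR 4.0.16 (quasi-likelihood, authors' size factors, a count minimum of 10, Benjamini-Hochberg adjustment) in R 4.3.3, and DESeq2 1.42.0 was an alternative. Adjustment counted the annotated genes not listed, 55536 annotated in all, as not significant. Libraries held 5734065 to 12780869 counts in the listed genes of the Setd8-LKO table and 1389901 to 3706582 in those of the TCPOBOP table. The overlaps, the consensus search and the RNA test were checked on simulated data, and the weight matrix was not. Alternatives were other scalings, filters, distances, runs and left-out libraries.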

Additional observations from a re-analysis of the deposited data

Results flagged for a closer look

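Of 44 groups of libraries, 3 held a library whose gap to the rest was large for its group, where chance gives about 1 in 20. Kif5c had 5 normalized counts in wild type untreated replicate 1, where the others had 1 to 2. Troap had 82 in replicate 3 labelled Setd8-LKO, where the others had 60 to 63. Sardh had 5639 in replicate 4 labelled Setd8-LKO, where the others had 4228 to 4433. None of these lay in the range of the opposite group.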

How the results depend on the processing

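The number of members stayed between 3585 and 4350 under every rule tried. The share with the consensus was 14.6% at −log10 p of at least 20, 3.21% with no mismatch, 8.46% by a weight matrix, 9.40% within 50 bp and 17.2% within 200 bp of the summit, and 15.6% outside repeats (added after seeing the data, like the other values outside repeats or within a run). The share at a start was 12.1% within 250 bp, 32.0% within 2000 bp, 10.9% for coding transcripts, 28.3% outside repeats, and 21.5% for members over 1000 bp from Smc3 and wild type CTCF peaks, which moved H3K27ac to 2.26% and Lamin A/C to 17.8%. The ATAC share was 1.58% at the summit and 2.69% outside repeats, H3K27ac 6.16% within 1000 bp, and Lamin A/C 6.98% outside repeats. Called genes at members numbered 62 (27 higher, 35 lower) with size factors of the listed genes, which is 55.4% of those tested against 59.9% of all tested genes, 52 within 250 bp (89.7% against 84.6%), 45 in run B alone (39.5% against 50.6%), and 80 to 98 with a library left out (71.4% to 86.7% against 71.6% to 83.3%, and below all tested genes without Setd8-LKO replicate 1, at 71.4% against 71.7%, and without wild type replicate 5, at 73.2% against 78.4%). In wild type given TCPOBOP they numbered 14 adjusted over listed genes only (all 14, against 98.97% of all tested genes), 4 within 250 bp (57.1% against 67.5%), 3 in run A (21.4% against 14.0%) and 5 in run B (33.3% against 36.1%). With a library left out they numbered 6 to 8 (42.9% to 57.1% against 48.5% to 63.3%). Among these fits the share was above that of all tested genes only without untreated wild type replicate 1, at 57.1% against 53.7%. TMM gave 1 higher and 6 lower, with the median of all genes moving from 1.35 to 0.09, and Rap1gap reversed to -0.00195. With replicate number as a block 59 and 5 genes were called (52.7% and 35.7%, against 58.7% and 23.4% of all tested genes). Correlations of same-numbered libraries ran from -0.15 to 0.07 in the Setd8-LKO table and from -0.43 to 0.10 in the TCPOBOP table. They gave no sign of pairing by number, but so few values cannot exclude it. Of 516 named gene values, 469 kept direction and side of the threshold, 31 lost it, 15 gained it and 1 reversed.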
